A study of Mus musculus with 11 samples.

Results

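Embryonic fibroblasts from mouse embryos labelled Atxn7l3-/- (knockout, KO) were compared with fibroblasts from Atxn7l3+/+ (wild-type, WT) embryos by RNA-seq, gene by gene, for lineage, matrix, receptor and immune programmes. The comparison used all fibroblast libraries of the series, 3 KO and 3 WT, which are 6 of its 11 samples, chosen by genotype and cell type as the labels give them. The study calls the 3 libraries of a genotype biological replicates, and the labels number them 1 to 3. The cells came from E10.5 embryos of crosses between heterozygous mice, on a background that the labels give as DBA/2 x C57BL/6, and no treatment is given for either group. For each embryo the head and the gastrointestinal tract were removed, and the rest was dissociated and plated by itself in DMEM with fetal calf serum. The cultures are therefore mixtures of whatever body-wall, limb, heart and trunk cells attached and grew, not a sorted cell type. All cells of a KO embryo carry the null allele from the start of development, so a difference that began in the embryo and one that began in the dish cannot be told apart. KO embryos at this age fall into a mild and a severe class, and the labels do not say from which class each library came.

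ATXN7L3 is an adaptor of the deubiquitylation module that the SAGA co-activator shares with free modules built on related ubiquitin proteases, and it is needed for removal of ubiquitin from histone H2B. Fibroblast cultures from mid-gestation embryos hold mesenchyme of several origins together with muscle precursors, neural crest derivatives and other adherent cells, and fibroblasts are known for making collagen-rich interstitial matrix. Mesothelium is the epithelial sheet that lines the body cavities and covers the heart as epicardium. Its markers include WT1, uroplakins and mesothelin, and it arises from lateral plate mesoderm, in which GATA4, GATA5 and GATA6 act.

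Library totals ranged from 34515342 to 49602605 counts, and the floor used here, 3 counts in a library, lay between 0.0563 and 0.0837 counts per 1e6 counts (CPM). Levels below are CPM scaled by TMM and are given for replicates 1, 2 and 3 in that order, and this floor and all counting intervals cover counting error only. Spearman correlations across genes were 0.916 to 0.961 among WT libraries, 0.947 to 0.972 among KO libraries and 0.837 to 0.927 between the genotypes, with KO replicate 2 the farthest from WT and KO replicate 3 the nearest. Atxn7l3 (chr11:102289300-102296631 in mm10, minus strand) was at 79.7, 104 and 92.9 CPM in WT and 49.2, 49.5 and 67.3 CPM in KO. Each KO library was below each WT library, but Atxn7l3 RNA remained in all 3, and the difference did not pass the test (log2 fold change −0.74 ± 0.21 (SE), adjusted p = 0.0715). With a correction of each library for the GC content of genes the log2 fold change was −0.34 (adjusted p = 0.151). All adjusted p-values here come from the quasi-likelihood test of edgeR, adjusted after Benjamini and Hochberg, except where DESeq2 is named. Counts per gene do not show which exons the reads cover, so "KO" means the libraries so labelled. By Western blot the study could not detect ATXN7L3 protein in its Atxn7l3-/- fibroblasts, and it found strongly raised ubiquitylated H2B in them. Without a block, none of the 13 genes for H2B deubiquitylation and ubiquitylation was called, the protease gene Usp22 standing at 136, 139 and 145 CPM in WT and 137, 123 and 143 CPM in KO. Usp51, for a related protease, was called with a block on the replicate number (adjusted p = 0.0469) but not without it, and it measured 1.41, 0.307 and 0.349 CPM in WT and 0.346, 0.0456 and 0.0275 CPM in KO (log2 fold change −2.27, adjusted p = 0.186). The ubiquitin-conjugating enzyme gene Ube2b stood at 152, 132 and 143 CPM in WT and 202, 258 and 169.8 CPM in KO. WT replicate 3 alone carried RNA of the X-inactivation transcript Xist and lacked that of Y-linked genes such as Ddx3y (0.218 CPM against 59.2 to 241 CPM elsewhere). The 6 fibroblast markers summed to 9138 to 40096 CPM in WT and 15799.5 to 24359.7 CPM in KO libraries, and 0 of them were called.

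Of 29450 genes listed, 15958 passed the filter on low counts, and a gene was called at an adjusted p of at most 0.05 with a change of at least 2-fold. By this rule 738 genes (4.62% of those tested) rose and 688 (4.31%) fell in KO libraries, with a median log2 fold change of −0.06 over all genes. In either direction 8.94% were called, and the counts of each list below are to be read beside these shares. A model that also blocked on the replicate number gave 830 genes that rose (5.2%) and 1323 that fell (8.29%, and 13.5% in either direction). DESeq2 gave 1254 that rose (7.86%) and 1955 that fell (12.3%, and 20.1% in either direction). The counts leaned on single libraries. The number that rose was 273, 463 and 120 without WT replicates 1, 2 and 3 and 162, 199 and 952 without KO replicates 1, 2 and 3. The number that fell was 191, 388 and 77 without WT replicates 1, 2 and 3 and 90, 86 and 1036 without KO replicates 1, 2 and 3. In each of these 6 fits, 102 of the genes that rose and 33 of those that fell were called, and below a call is said to hold where it passed in all 6. Calls that held are not all so described. The mesenchymal, guidance receptor and myeloid lists each had 1 gene that rose and held. Integrins had 1 that fell and held. The GC correction ended the calls of 19 genes described below, Ccl7, Col18a1, Cx3cl1, Cxcl14, Fgfr4, Foxd3, H2-Eb1, Hoxa10, Hoxa11, Hoxa9, Lbp, Ly96, Mmp15, Mymk, Pcdh11x, Rnf43, Tap2, Tbx15 and Tbx2 (adjusted p = 0.0508 to 0.108), and brought Eif2ak2 below 2-fold. It also ended those of Ntn1 and Ntn4 (adjusted p = 0.0664 and 0.0624), which are named below and not counted among the 19. With both the correction and the block 29 lost their call, of which 10 had kept it under either alone, Acvrl1, Adgrf5, Ccl2, Col10a1, Epha5, Pcdh8, Plvap, Robo2, Rxfp1 and Tnn. All 3 KO libraries lay above all 3 WT libraries for 20% of tested genes and below them for 19.8%, whether called or not.

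Among called genes with at least 10 CPM in the higher group and no overlap of the libraries, the 5 with the largest fitted increases were Pglyrp3, Pkhd1l1, Lrrn4, Tcf21 and Muc16. Pglyrp3, for a peptidoglycan recognition protein of the epidermis, had 0 counts in every WT library and 8.12, 9.97 and 12.8 CPM in the KO libraries, at least 151-fold higher against the floor of 3 counts per library (adjusted p = 0.00752). Pkhd1l1, for a large membrane protein related to fibrocystin, went from 0.582, 1.17 and 1.4 CPM in WT to 771, 1078 and 456 CPM in KO libraries (log2 fold change 9.52 ± 0.61 (SE), adjusted p = 0.00215). The 5 largest fitted decreases were those of Hoxd13, Cpxm2, Sox10, Crabp1 and Col2a1. Crabp1, for a retinoic acid-binding protein of mesenchyme and neural crest, was at 3.72, 34.5 and 10.49 CPM in WT and 0.0462, 0.0228 and 0.137 CPM in KO (log2 fold change −7.87, adjusted p = 0.0175). Cpxm2, for a carboxypeptidase-like secreted protein, measured 9.89, 68.1 and 4.21 CPM in WT and 0.0923, 0.0456 and 0.165 CPM in KO (log2 fold change −8.07, adjusted p = 0.0229). For these decreases the KO libraries lay close together near 0, whereas the WT libraries were spread, with WT replicate 2 the highest for Crabp1 and Cpxm2.

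**Figure D1:**
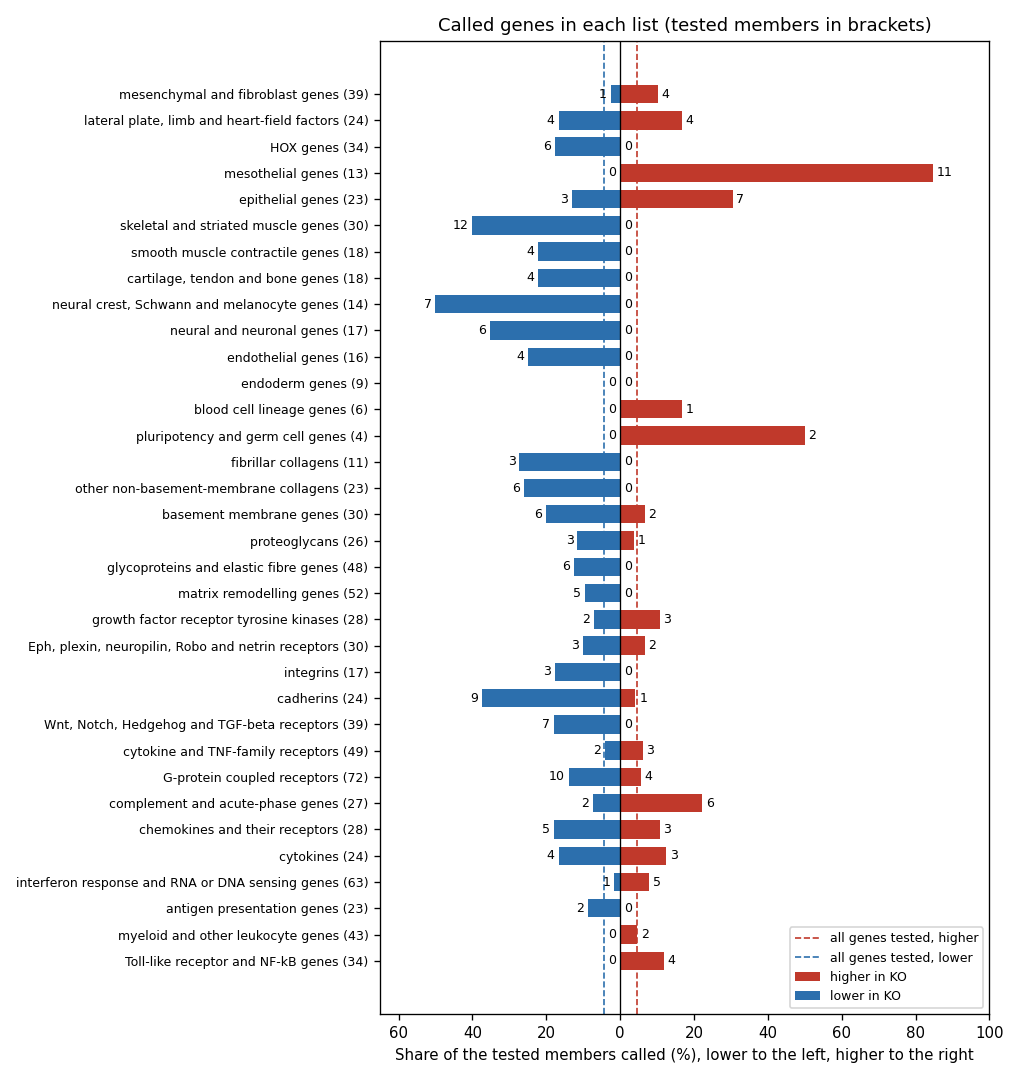
Share of the tested members of each of the 34 gene lists that were called higher (red, to the right) or lower (blue, to the left) in KO libraries, in percent, with the number called at the end of each bar and the number tested in brackets. Dashed lines mark the shares over all 15958 genes tested, 4.62% higher and 4.31% lower; the bar for mesothelial genes reaches 11 of 13 on the right, and those for muscle, neural crest, neural and cadherin genes are the longest on the left.

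Most genes of the mesothelial list rose. Like the other lists, it was chosen with earlier results of these data known, so its share is a description and not a test. The list has 15 genes, of which Calb2 and Lgals7 did not pass the filter; of the 13 tested, 11 rose and 0 fell, with a median log2 fold change of 6.70 (all genes, 4.62% up and −0.06). In bulk RNA, fewer or more cells of a type and less or more RNA per cell cannot be told apart. Lrrn4, for a leucine-rich repeat membrane protein, stood at 1.37, 4.6 and 2.88 CPM in WT and 1862, 2098 and 1286 CPM in KO (log2 fold change 9.22 ± 0.65 (SE), adjusted p = 0.00263). Muc16, for the membrane mucin that carries the CA125 antigen, was at 0.244, 0.809 and 0.414 CPM in WT and 239, 122 and 232 CPM in KO (log2 fold change 8.68 ± 0.61 (SE), adjusted p = 0.00263). Both were low in every WT library, and every KO library was far above the highest WT library, a gap wider than the spread within either genotype.

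The uroplakin genes encode membrane plaque proteins of urothelium that mesothelium also makes. Upk1b measured 4.39, 7.11 and 7.7 CPM in WT and 2554, 2206 and 1709 CPM in KO (log2 fold change 8.40 ± 0.44 (SE), adjusted p = 0.000903). Upk3b stood at 3.9, 16.3 and 3.75 CPM in WT and 2004, 1601 and 1570.3 CPM in KO (log2 fold change 7.76 ± 0.80 (SE), adjusted p = 0.00793). On the deposited scale of normalized reads per kb, the KO mean of Upk1b was 51889, the highest of the list, followed by Aldh1a1 (50627) and Ezr (39782). Msln, for mesothelin, a surface glycoprotein to which the product of Muc16 binds, was at 3.13, 5.86 and 1.68 CPM in WT and 1039.9, 427 and 702 CPM in KO (log2 fold change 7.67 ± 0.68 (SE), adjusted p = 0.00594). Wt1, for the zinc finger factor that marks mesothelium and epicardium (chr2:105126529-105173616 in mm10), measured 0.882, 2.68 and 1.0 CPM in WT and 158, 208 and 105 CPM in KO (log2 fold change 6.70 ± 0.60 (SE), adjusted p = 0.00594). The 5 defining markers (Wt1, Msln, Upk3b, Lrrn4 and Muc16) together summed to 9.54 to 30.2 CPM in WT and 3895 to 5302 CPM in KO libraries, and all 5 were called.

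Ezr, for the membrane-to-actin linker ezrin, stood at 289, 66.2 and 124 CPM in WT and 1790.2, 1709 and 1851 CPM in KO (log2 fold change 3.48, adjusted p = 0.0217) and was thus well expressed in WT too. The other 4 called members, named here after their values were seen, were the basonuclin gene Bnc1 (KO 373 to 831 CPM against WT 1.9 to 4.09), the R-spondin gene Rspo1 (65.04 to 80.4 against 0.262 to 1.79), the membrane glycoprotein gene Gpm6a (961 to 2726 against 5.75 to 67.4) and the retinaldehyde dehydrogenase gene Aldh1a1 (529.8 to 1621 against 34.8 to 136). Aldh1a2, for the retinaldehyde dehydrogenase of embryonic mesoderm, and Slpi, for a secreted protease inhibitor, were not called. Aldh1a2 was at 35.1, 4.07 and 10.97 CPM in WT and 95.9, 20.1 and 15.6 CPM in KO (log2 fold change 1.39, adjusted p = 0.344), and its libraries overlapped. The calls of Wt1, Msln, Upk1b, Upk3b, Lrrn4, Muc16, Bnc1 and Rspo1 held. The number called in the list was 11, 10 and 8 without WT replicates 1, 2 and 3 and 8, 8 and 11 without KO replicates 1, 2 and 3, and 11 with the replicate block.

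**Figure D2:**
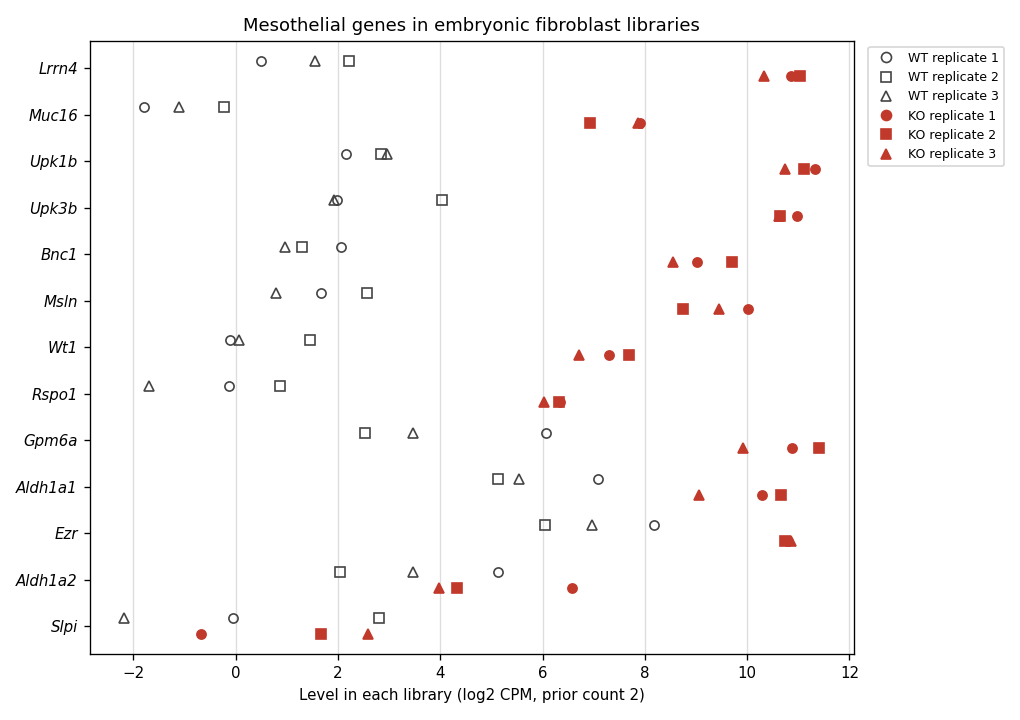
Level of each of the 13 tested mesothelial genes in each library, as log2 CPM with a prior count of 2. Open symbols are the 3 WT libraries and red symbols the 3 KO libraries, each replicate with its own shape; for 11 genes all red symbols lie to the right of all open ones, while those of Aldh1a2 and Slpi overlap.

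The proximal promoters of Lrrn4, Upk3b, Muc16 and Tcf21 are printed below, because these genes, 3 mesothelial ones and a mesenchymal factor, rose together from near 0 (Tcf21 is described with the mesenchymal factors). Each runs from 250 bases before to 50 bases after the RefSeq start site on GRCm38.p6, the assembly of mm10, written 5′ to 3′ on the gene's strand. Capitals mark matches on either strand to GATAA, a form of the core that GATA factors bind, or to CATTCC, the core that TEAD factors bind. Other forms of the GATA core, such as GATAG, were not searched for and are not marked.
Lrrn4 (chr2:132880813-132881112, minus strand): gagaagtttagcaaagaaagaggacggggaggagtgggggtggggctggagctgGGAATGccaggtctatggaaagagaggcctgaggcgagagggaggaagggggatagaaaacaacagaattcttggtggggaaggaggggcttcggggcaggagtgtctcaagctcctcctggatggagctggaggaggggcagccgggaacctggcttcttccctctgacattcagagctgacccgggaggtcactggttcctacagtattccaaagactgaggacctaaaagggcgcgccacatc
Upk3b (chr5:136038246-136038545, plus strand): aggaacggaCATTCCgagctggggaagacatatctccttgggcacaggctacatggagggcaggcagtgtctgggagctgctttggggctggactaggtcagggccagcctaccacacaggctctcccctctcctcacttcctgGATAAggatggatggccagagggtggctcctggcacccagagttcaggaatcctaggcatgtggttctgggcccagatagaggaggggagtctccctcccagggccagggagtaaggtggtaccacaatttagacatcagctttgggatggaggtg
Muc16 (chr9:18674554-18674853, minus strand): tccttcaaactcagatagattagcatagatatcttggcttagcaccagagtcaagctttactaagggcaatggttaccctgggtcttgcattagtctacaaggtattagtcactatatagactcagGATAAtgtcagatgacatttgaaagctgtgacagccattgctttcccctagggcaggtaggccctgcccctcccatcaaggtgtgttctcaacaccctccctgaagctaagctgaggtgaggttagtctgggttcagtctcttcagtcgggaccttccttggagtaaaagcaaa
Tcf21 (chr10:22820094-22820393, minus strand): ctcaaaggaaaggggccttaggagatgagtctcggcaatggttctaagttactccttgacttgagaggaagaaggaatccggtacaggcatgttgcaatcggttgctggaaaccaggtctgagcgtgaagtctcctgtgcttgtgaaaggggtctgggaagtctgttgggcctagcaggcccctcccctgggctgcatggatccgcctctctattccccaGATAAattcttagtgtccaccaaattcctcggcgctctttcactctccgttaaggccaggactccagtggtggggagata
GATAA was present in 3 of these 4 and CATTCC in 2, and the 2 motifs did not overlap. Of all 27025 genes with a RefSeq promoter of this length, 25.8% held GATAA and 14.6% held CATTCC; of the 11 mesothelial genes with one, 3 and 4 did. Of the 11436 promoters of tested genes, 16.1% held GATAA and 12.3% held CATTCC. The T-box core GGTGTGA and the TATA box TATAAA, found in 3.96% and 14.2% of all promoters on either strand and in 3.31% and 7.52% of those of tested genes, were in 0 of the 4 windows.

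Transcription factors of the heart field and lateral plate moved in both directions. Of 24 tested, 4 rose and 4 fell, with a median log2 fold change of −1.92 (4.62% up and 4.31% down over all genes). The 3 cardiac and visceral GATA factor genes all rose. Gata6 measured 4.13, 10.9 and 10.8 CPM in WT and 249, 341 and 157 CPM in KO (log2 fold change 4.86 ± 0.52 (SE), adjusted p = 0.00878). Gata4 stood at 0.976, 4.27 and 0.72 CPM in WT and 86.1, 90.9 and 49.1 CPM in KO (log2 fold change 5.26 ± 0.79 (SE), adjusted p = 0.0177). Gata5 had 3 counts in all WT libraries together and 6.97, 4.68 and 2.42 CPM in the KO libraries, a ratio of 217-fold (95% exact counting interval 73.8 to 1054) with adjusted p = 0.0105. The Gata6 call held, that of Gata4 in 2 of the 6 such fits and that of Gata5 in 5. Nkx2-3, for a homeobox factor of gut and spleen mesoderm, had 3 counts in WT in all and 2.49, 10.2 and 0.879 CPM in KO libraries (ratio 214-fold (95% exact counting interval 73.03 to 1043), adjusted p = 0.0291). KO replicate 2 was the highest.

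The 4 that fell in the same list are factors of limb and body-wall patterning. Tbx2, a T-box repressor gene, was at 7.4, 8.65 and 11.8 CPM in WT and 0.854, 1.67 and 1.13 CPM in KO (log2 fold change −2.93 ± 0.44 (SE), adjusted p = 0.0175). Its relative Tbx3 measured 9.86, 17.4 and 20.7 CPM in WT and 3.69, 2.3 and 5.63 CPM in KO (log2 fold change −2.04, adjusted p = 0.0443). Alx4, for a homeobox factor of the anterior limb and face, stood at 19.2, 11.1 and 14.2 CPM in WT and 0.554, 0.0456 and 0.33 CPM in KO (log2 fold change −5.57 ± 0.85 (SE), adjusted p = 0.0183). Lmx1b, for the homeobox factor of dorsal limb mesenchyme, was at 4.79, 14.6 and 1.59 CPM in WT and 0.115, 0 and 0.165 CPM in KO (adjusted p = 0.0392, or 0.0585 with the replicate block, which ends the call). WT libraries were several times apart for Lmx1b, and each KO library was at or near the floor. Called members that rose numbered 2, 3 and 1 without WT replicates 1, 2 and 3 and 2, 2 and 4 without KO replicates 1, 2 and 3. Those that fell numbered 1, 2 and 0 without WT replicates 1, 2 and 3 and 1, 2 and 6 without KO replicates 1, 2 and 3.

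In the mesenchymal and fibroblast list, 4 of 39 tested genes rose and 1 fell (4.62% up and 4.31% down over all genes). The median of the list was −1.60 on the log2 scale. Tcf21 (chr10:22817281-22820174 in mm10), for the basic helix-loop-helix factor of epicardium-derived and visceral mesenchyme, measured 0.263, 0.92 and 0.458 CPM in WT and 289.9, 292 and 105 CPM in KO (log2 fold change 8.73 ± 0.73 (SE), adjusted p = 0.0057). Tbx18, the T-box gene of epicardium, sinus horn and urogenital mesenchyme, stood at 9.93, 19.999 and 15.1 CPM in WT and 163, 152 and 80.5 CPM in KO (log2 fold change 3.13 ± 0.39 (SE), adjusted p = 0.0118). S100a4, for a calcium-binding protein of motile fibroblasts, was at 39.4, 168 and 118 CPM in WT and 749, 839 and 658 CPM in KO (log2 fold change 2.79, adjusted p = 0.0293). The fourth to rise was Nt5e, for the surface ecto-nucleotidase CD73, from 13.04 to 17.5 CPM to 42.2 to 61.7 CPM (named after its values were seen). Tbx15, a T-box gene of limb and dermal mesenchyme, fell, at 31.2, 188 and 40.6 CPM in WT and 5.52, 3.4 and 11.7 CPM in KO (log2 fold change −3.66, adjusted p = 0.0464, and adjusted p = 0.0698 with the block). WT replicate 2 was the highest library for Tbx15, and all KO libraries lay below the lowest WT library. Genes that fell in this list numbered 5 with the block, and 0, 1 and 0 without WT replicates 1, 2 and 3 and 1, 0 and 8 without KO replicates 1, 2 and 3. Vim, for the intermediate filament vimentin, was not called (2881, 3472 and 5327 CPM in WT and 1254, 1199 and 2597 CPM in KO, log2 fold change −1.21, adjusted p = 0.121). The surface marker gene Thy1 was not called either, and its groups overlapped (139.9, 282 and 370.0 CPM in WT and 184, 106 and 146 CPM in KO, adjusted p = 0.178).

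HOX genes, which give cells their position along the body and limb axes, fell in 6 of 34 tested cases and rose in 0 (4.31% down over all genes), with a median of −1.92. Hoxd13, a gene of distal limb and genital tubercle, measured 1.07, 24.1 and 9.92 CPM in WT and had 2 counts in all KO libraries together, 629-fold (95% exact counting interval 174 to 5202) lower (adjusted p = 0.0248). Hoxa10 stood at 6.74, 57.5 and 9.01 CPM in WT and 0.392, 0.0684 and 1.15 CPM in KO (adjusted p = 0.0478). Hoxa11 was at 5.65, 31.7 and 6.87 CPM in WT and 0.0231, 0.0228 and 0.604 CPM in KO (adjusted p = 0.0492). The other genes that fell were Hoxa9, Hoxc9 and Hoxd10, so all 6 belong to the posterior paralogue groups from 9 on. WT replicate 2 was the highest library for all 6, and the KO libraries were at most 1.15 CPM. The anterior gene Hoxb3 measured 49.6, 18.4 and 64.1 CPM in WT and 17.7, 10.54 and 43.2 CPM in KO, an overlap of the groups (log2 fold change −0.89, adjusted p = 0.356). Hoxd8 was 8.8, 25.7 and 10.4 CPM in WT and 41.02, 109.8 and 29.6 CPM in KO libraries; it was not called (adjusted p = 0.0863) but was with the block (adjusted p = 0.0185). With the block 11 HOX genes fell and 1 rose, although Hoxa9 and Hoxa10 then lost their call (adjusted p = 0.0636 and 0.0714). Genes that fell numbered 1, 2 and 0 without WT replicates 1, 2 and 3 and 0, 0 and 18 without KO replicates 1, 2 and 3.

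Epithelial genes split. Of 23 tested, 7 rose and 3 fell, and the median log2 fold change was −0.15 (4.62% up and 4.31% down over all genes). Krt7, a simple epithelial keratin gene, stood at 1.03, 3.26 and 1.88 CPM in WT and 392.1, 514 and 174 CPM in KO (log2 fold change 7.46 ± 0.68 (SE), adjusted p = 0.0062). Spint1, for a membrane serine protease inhibitor, was at 0.225, 0.0558 and 0.284 CPM in WT and 96.8, 114 and 23.6 CPM in KO (log2 fold change 8.63 ± 0.89 (SE), adjusted p = 0.00793). Krt18, another simple keratin gene, measured 0.394, 0.614 and 0.174 CPM in WT and 27.4, 4.74 and 20.99 CPM in KO (log2 fold change 5.49 ± 0.85 (SE), adjusted p = 0.0189). The rest that rose were Esrp2, for an epithelial splicing factor, Pkp3, for a plakophilin, Spint2, for a protease inhibitor, and Krt14, the keratin gene of basal stratified epithelium. Krt14 had 3 counts in WT in all and 0.369, 1.163 and 0.632 CPM in KO (ratio 32.8-fold (95% exact counting interval 10.9 to 162), adjusted p = 0.0399, or 0.0532 with the block). Those that fell were Trp63, Pkp1 and Cldn1. Trp63, for the factor p63 of basal epithelial cells, stood at 2.12, 3.54 and 0.502 CPM in WT and had 2 counts in KO libraries in all (120.4-fold (95% exact counting interval 32.997 to 999) lower, adjusted p = 0.022). Pkp1, for a desmosomal plakophilin, was at 1.61, 3.07 and 7.81 CPM in WT and 0.138, 0.137 and 0.165 CPM in KO (log2 fold change −4.80, adjusted p = 0.0189). Cldn1, for a tight junction claudin, measured 3.74, 3.43 and 0.872 CPM in WT and 0.0923, 0.137 and 0.165 CPM in KO (log2 fold change −4.33, adjusted p = 0.0221). The 4 defining epithelial markers did not rise. Cdh1, for E-cadherin, stood at 1.39, 1.37 and 0.545 CPM in WT and 0.231, 0.776 and 0.0824 CPM in KO (log2 fold change −1.58, adjusted p = 0.229). Epcam, Grhl2 and Esrp1 were too low to test, Esrp1 having 0 counts in KO libraries. The sum of the 4 was 0.698 to 1.58 CPM in WT and 0.165 to 0.935 CPM in KO libraries. Cdh3, for P-cadherin, was at 14.3, 117 and 38.4 CPM in WT and 212, 253 and 257 CPM in KO and was called with the block (adjusted p = 0.0487) but not without it (adjusted p = 0.097). The calls of Krt7, Spint1 and Esrp2 held, and the number that rose was 4, 6 and 3 without WT replicates 1, 2 and 3 and 3, 4 and 7 without KO replicates 1, 2 and 3.

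Skeletal and striated muscle genes fell in 12 of 30 tested cases, and 0 rose (4.31% down over all genes), with a median log2 fold change of −3.17. Myh3, the embryonic myosin heavy chain gene, measured 39.1, 2.68 and 8.2 CPM in WT and 0.0462, 0.0684 and 0.165 CPM in KO (log2 fold change −7.47 ± 1.27 (SE), adjusted p = 0.0229). Myl1, for a fast myosin light chain, stood at 9.55, 1.76 and 1.18 CPM in WT and 0.0692, 0 and 0.0275 CPM in KO (log2 fold change −6.89, adjusted p = 0.0312). Myh7, for slow and cardiac myosin heavy chain, was at 3.4, 0.502 and 1.64 CPM in WT and had 2 counts in KO libraries in all (125-fold (95% exact counting interval 34.4 to 1041) lower, adjusted p = 0.0325). In each of the 3 the KO libraries were near the floor and WT replicate 1 was the highest. The myogenic factors that start this programme were low even in WT. Myod1 measured 1.33, 0.0837 and 0.284 CPM in WT with 1 count in KO libraries in all and was not tested, nor was Pax7. Myog stood at 4.58, 1.48 and 1.4 CPM in WT and 0.0462, 0 and 0.22 CPM in KO and was not called (adjusted p = 0.0527). Mymk, for the fusion protein myomaker, fell from 5.43, 0.53 and 0.741 CPM to 0.0231, 0.0228 and 0.0824 CPM (adjusted p = 0.0415). The 4 defining markers summed to 2.09 to 11.6 CPM in WT and 0.0456 to 0.33 CPM in KO libraries. Of the genes that heart muscle also uses, Myl4, for another atrial light chain, fell, but Tnnt2 and Myl7 were not called. Tnnt2, for cardiac troponin T, was at 19.9, 10.8 and 19.02 CPM in WT and 61.2, 36.7 and 14.7 CPM in KO (log2 fold change 1.18, adjusted p = 0.17). Myl7, for the atrial myosin light chain, measured 1.65, 0.251 and 0.218 CPM in WT and 14.6, 158 and 0.577 CPM in KO (log2 fold change 6.32, adjusted p = 0.0867), with KO replicate 2 far above the other libraries. Genes of the list that fell numbered 4, 9 and 0 without WT replicates 1, 2 and 3 and 0, 0 and 9 without KO replicates 1, 2 and 3.

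Smooth muscle contractile genes fell in 4 of 18 cases without the block and in 11 with it (4.31% and 8.29% over all genes), and 0 rose in either. The median was −2.52, and in 15 of 18 all KO libraries lay below all WT libraries (19.8% over all genes). Myh11, for smooth muscle myosin heavy chain, stood at 45.1, 86.6 and 80.5 CPM in WT and 3.39, 2.01 and 5.38 CPM in KO (log2 fold change −4.30 ± 0.47 (SE), adjusted p = 0.00933), and its call held. Rgs5, a regulator of G-protein signalling and a pericyte marker, was at 60.9, 32.2 and 59.8 CPM in WT and 1.2, 0.0684 and 2.28 CPM in KO (log2 fold change −5.44, adjusted p = 0.0308). Synpo2, for an actin-binding synaptopodin, measured 24.6, 8.59 and 12.9 CPM in WT and 4.36, 1.41 and 2.86 CPM in KO (log2 fold change −2.42, adjusted p = 0.0494). The alpha actin gene Acta2 stood at 4847, 5641 and 8034 CPM in WT and 882, 634 and 2949.8 CPM in KO, groups without overlap but with adjusted p = 0.088, or 0.0376 with the block. Cald1, for caldesmon, was at 2884, 1149 and 3140.2 CPM in WT and 1919, 1662 and 2533 CPM in KO and overlapped (log2 fold change −0.23, adjusted p = 0.743).

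Cartilage, tendon and bone genes fell in 4 of 18 tested cases and 0 rose (median −3.06, and 4.31% down over all genes). Tnmd, for the tendon glycoprotein tenomodulin, measured 44.5, 313 and 126 CPM in WT and 1.27, 0.342 and 0.852 CPM in KO (log2 fold change −7.61 ± 0.96 (SE), adjusted p = 0.0121), and its call held. Matn4, for a matrilin of cartilage, stood at 8.09, 71.8 and 4.6 CPM in WT and 0.138, 0.182 and 0.275 CPM in KO (log2 fold change −7.14, adjusted p = 0.0273). Alpl, for the alkaline phosphatase of mineralizing cells, was at 6.27, 23.8 and 1.09 CPM in WT and 0.162, 0.0912 and 0.0824 CPM in KO (log2 fold change −6.49, adjusted p = 0.0312). Scx, for the tendon factor scleraxis, was the other gene that fell (5.03, 13.3 and 13.96 CPM in WT and 1.02, 1.03 and 1.65 CPM in KO, adjusted p = 0.0229). WT replicate 2 stood highest for Matn4, Alpl and Tnmd. The number that fell was 3, 4 and 3 without WT replicates 1, 2 and 3 and 1, 1 and 9 without KO replicates 1, 2 and 3. Spp1, for the matrix protein osteopontin, was spread in both genotypes, at 421, 1189 and 238 CPM in WT and 1940.5, 319 and 2571 CPM in KO (log2 fold change 1.39, adjusted p = 0.298).

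Neural crest, Schwann and melanocyte genes fell in 7 of 14 tested cases, and 0 rose (median −3.66; 4.31% down over all genes). Sox10, for the factor that maintains crest-derived glia and melanoblasts, measured 6.78, 4.43 and 24.1 CPM in WT and 0.0462, 0 and 0.0824 CPM in KO (log2 fold change −8.05 ± 1.19 (SE), adjusted p = 0.0168). Foxd3, for a forkhead factor of early crest, stood at 0.845, 0.697 and 7.83 CPM in WT with 0 counts in every KO library, at least 42.6-fold lower (adjusted p = 0.0498). Gfra3, for the artemin co-receptor, had 2 counts in all KO libraries and 1.164, 1.06 and 4.49 CPM in WT (140.1-fold (95% exact counting interval 38.4 to 1162) lower, adjusted p = 0.0183). Fabp7, a fatty acid-binding protein gene of glial precursors, was at 87.2, 70.6 and 53.5 CPM in WT and 11.98, 1.62 and 3.68 CPM in KO (log2 fold change −3.61, adjusted p = 0.0362). WT replicate 3 was the highest library for Sox10, Foxd3 and Gfra3. Ets1, which is also active in endothelium and mesenchyme, was not called (118, 34.001 and 126 CPM in WT and 40.5, 54.8 and 62.5 CPM in KO, adjusted p = 0.275). The number that fell was 3, 4 and 1 without WT replicates 1, 2 and 3 and 1, 1 and 4 without KO replicates 1, 2 and 3.

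Neuronal genes fell in 6 of 17 tested cases, or 10 with the block, and 0 rose (median −3.17). Over all genes 4.31% fell, or 8.29% with the block. Stmn2, for a tubulin-binding stathmin of growing axons, measured 39.7, 15.95 and 57.1 CPM in WT and 0.508, 0.0912 and 0.385 CPM in KO (log2 fold change −6.83 ± 0.81 (SE), adjusted p = 0.0109). Map2, a microtubule-binding protein gene, stood at 62.3, 115 and 83.4 CPM in WT and 6.28, 7.78 and 12.7 CPM in KO (log2 fold change −3.28 ± 0.38 (SE), adjusted p = 0.0101); both calls held. Nefl, for neurofilament light chain, was at 2.83, 1.17 and 11.5 CPM in WT and had 2 counts in KO libraries (329-fold (95% exact counting interval 90.8 to 2723) lower, adjusted p = 0.0259). Dcx, for doublecortin, measured 4.58, 0.865 and 1.64 CPM in WT and 0.0462, 0.0456 and 0.0275 CPM in KO (log2 fold change −5.78, adjusted p = 0.0177). Nes, for the intermediate filament nestin, stood at 615, 70.8 and 504 CPM in WT and 58.8, 21.5 and 54.7 CPM in KO and was called with the block only (adjusted p = 0.058 without and 0.023 with it). Of the other defining markers, Tubb3 overlapped between the genotypes at 25.5, 32.4 and 118 CPM in WT and 4.85, 0.479 and 30.1 CPM in KO, and Elavl3 and Snap25 were too low to test. KO replicate 2 was the lowest library for Tubb3, Stmn2 and Nes. Gap43 and L1cam, for proteins of growing axons, also fell. The number that fell was 4, 7 and 2 without WT replicates 1, 2 and 3 and 2, 2 and 6 without KO replicates 1, 2 and 3.

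Endothelial genes fell in 4 of 16 tested cases (median −1.19, and 4.31% down over all genes), and those were Flt1, Sox7, Plvap and Mmrn2. Flt1, for a VEGF receptor, was at 14.1, 5.66 and 11.8 CPM in WT and 0.716, 0.616 and 0.549 CPM in KO (log2 fold change −4.06 ± 0.49 (SE), adjusted p = 0.0114), and its call held. Kdr, for the main VEGF receptor, measured 69.6, 3.32 and 14.1 CPM in WT and 8.15, 1.21 and 2.66 CPM in KO, with WT replicate 1 far above the rest (log2 fold change −2.85, adjusted p = 0.15, or 0.0274 with the block). The junction genes Pecam1 and Cdh5 were below 0.4 CPM in every library, and Tek, for the angiopoietin receptor, stood at 0.451, 1.65 and 0.458 CPM in WT and 9.33, 7.53 and 0.22 CPM in KO. The summed level of the 4 markers was 5.24 to 70.6 CPM in WT and 3.02 to 17.9 CPM in KO libraries, and 0 of the 4 were called. Endothelial genes that fell numbered 1, 2 and 1 without WT replicates 1, 2 and 3 and 1, 1 and 3 without KO replicates 1, 2 and 3. None of 9 tested endoderm genes was called, the defining marker Ttr standing highest in WT replicate 2 (17.7 CPM). Of 6 tested blood cell lineage genes 1 rose, Alas2, for the first enzyme of heme synthesis in red cells (0.131, 0.251 and 0.0218 CPM in WT and 5.84, 1.09 and 10.4 CPM in KO, adjusted p = 0.0387, or 0.0656 with the block). Globin genes were at or near 0, Hba-a1 and Hbb-bs having 0 counts in KO libraries.

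In the short list of pluripotency and germ cell genes, 2 of 4 tested genes rose. Ddx4, for the germ cell RNA helicase VASA, was at 0.357, 1.23 and 0.393 CPM in WT and 92.3, 310.4 and 86.3 CPM in KO (log2 fold change 7.98 ± 0.88 (SE), adjusted p = 0.00936). Tfcp2l1, for a factor of naive pluripotency and of kidney ducts, measured 1.15, 1.39 and 0.96 CPM in WT and 65.4, 53.9 and 24.996 CPM in KO (log2 fold change 5.36 ± 0.46 (SE), adjusted p = 0.00591). Both calls held, and all KO libraries lay far above all WT libraries. Nanog, the pluripotency marker that was tested, did not pass and stood at 0.976, 0.53 and 0.611 CPM in WT and 0.554, 0.456 and 0.604 CPM in KO (adjusted p = 0.554). Over all lineage lists, 29 of 265 tested genes rose (10.9%) and 51 fell (19.2%), or 79 with the block. Over all genes 4.62% rose and 4.31% fell, or 8.29% that fell with the block. The number that rose was 23, 26 and 15 without WT replicates 1, 2 and 3 and 18, 20 and 35 without KO replicates 1, 2 and 3. The number that fell was 20, 39 and 11 without WT replicates 1, 2 and 3 and 8, 9 and 76 without KO replicates 1, 2 and 3.

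The plot of lineage lists by library shows how the libraries ranked within each genotype. Among WT libraries, replicate 1 had the highest mean level of muscle genes (2.85 on the centred log2 scale, against 0.67 and 1.02), replicate 2 that of cartilage, tendon and bone genes (2.72 against 0.77 and 0.96) and replicate 3 that of neural crest genes (2.14 against 1.85 and 0.99). Among KO libraries, replicate 2 was the lowest for muscle, cartilage, neural crest, neuronal and HOX genes, and replicate 3 was the closest to WT for HOX genes (0.13, against −1.56 and −2.14). Over all genes tested KO replicate 2 was also the lowest on this scale (−0.24, against −0.05 and −0.06 in KO replicates 1 and 3). For mesothelial genes the KO libraries lay between 2.84 and 3.22 and the WT libraries between −3.62 and −2.78.

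**Figure D3:**
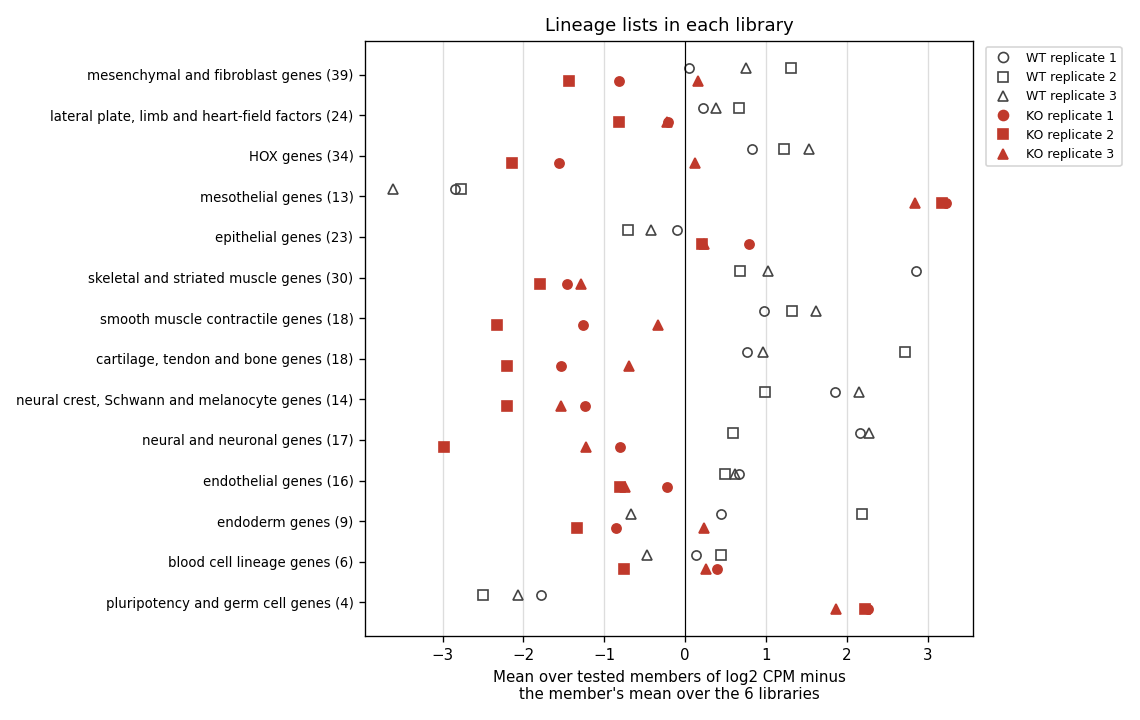
Mean level of each lineage list in each library: for every tested member, log2 CPM minus its mean over the 6 libraries, averaged over the members (number in brackets). Open symbols are WT and red symbols KO replicates 1 (circle), 2 (square) and 3 (triangle); mesothelial genes separate the genotypes most widely, in the opposite direction to muscle, cartilage, neural crest and neuronal genes.

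Matrix genes mostly fell where they were called. Over the 6 matrix lists, 3 of 190 tested genes rose (1.58%) and 29 fell (15.3%), or 9 and 44 with the block, and the median log2 fold change was −1.25. The shares over all genes were 4.62% and 4.31%, or 5.2% and 8.29% with the block. Matrix genes that fell numbered 7, 14 and 6 without WT replicates 1, 2 and 3 and 6, 7 and 49 without KO replicates 1, 2 and 3. Those that rose numbered 1, 4 and 1 without WT replicates 1, 2 and 3 and 1, 1 and 4 without KO replicates 1, 2 and 3. The main interstitial collagens were not among them. Col1a1 was at 2751, 12698 and 6152 CPM in WT and 2548, 2182 and 6561 CPM in KO. Col1a2 measured 2094, 14148 and 5007 CPM in WT and 5061, 4599 and 5690.0 CPM in KO, and Col3a1 at 1258, 9407 and 1370.3 CPM in WT and 6646, 8932 and 9317 CPM in KO. The genotypes overlapped for all 3 (adjusted p = 0.378, 0.657 and 0.407), and WT replicate 2 was the highest WT library for each. Marker sums of other cell types moved in the same comparison. That of the neural crest markers was 13.4 to 87.5 CPM in WT and 0.912 to 1.46 CPM in KO libraries, and that of the neuronal markers 48.4 to 175 and 0.593 to 30.5 CPM. The muscle sum, given above, was lower and the mesothelial sum, given above, higher in every KO library. The part of these cell types in the matrix and receptor changes was not tested.

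Of 11 fibrillar collagen genes, 3 fell without the block (4.31% over all genes), all of types found with cartilage or bone. Col2a1, for the main collagen of cartilage, stood at 158, 555 and 456 CPM in WT and 2.31, 0.57 and 2.2 CPM in KO (log2 fold change −7.86 ± 0.82 (SE), adjusted p = 0.00827), a drop that held. Col11a1, whose product joins type II fibrils, was at 752, 1101 and 441 CPM in WT and 97.5, 26.1 and 131 CPM in KO (log2 fold change −3.17, adjusted p = 0.0377). Col24a1 measured 2.52, 8.79 and 2.86 CPM in WT and 0.346, 0.137 and 0.549 CPM in KO (log2 fold change −3.77, adjusted p = 0.0382). The block ended the calls of Col11a1 and Col24a1 (adjusted p = 0.0545 and 0.0556). Col5a1, another fibrillar collagen gene, stood at 1214, 2047 and 2369 CPM in WT and 269, 179 and 861 CPM in KO, without overlap. It was called with the block (log2 fold change −2.37, adjusted p = 0.0398) but not without it (adjusted p = 0.0812). The other non-basement-membrane collagens fell in 6 of 23 cases, or 10 with the block (4.31% and 8.29% over all genes), with a median of −3.43. Col26a1 stood at 11.7, 10.7 and 1.156 CPM in WT and had 3 counts in all KO libraries (323-fold (95% exact counting interval 110.4 to 1571) lower, adjusted p = 0.0206). Col25a1, for a membrane collagen of muscle and nerve, was at 10.9, 3.6 and 21.4 CPM in WT and 0.0923, 0.0684 and 0.439 CPM in KO (log2 fold change −5.91, adjusted p = 0.0254). Col10a1, for the collagen of hypertrophic cartilage, measured 73.98, 410.2 and 54.5 CPM in WT and 1.22, 2.21 and 9.26 CPM in KO (log2 fold change −5.41, adjusted p = 0.0413). The abundant Col12a1, whose product binds type I fibrils, was 2389.6, 3173 and 2112 CPM in WT and 232, 117 and 1099.5 CPM in KO libraries, without overlap but not called (log2 fold change −2.41, adjusted p = 0.103).

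The other collagens that fell numbered 0, 2 and 2 without WT replicates 1, 2 and 3 and 1, 1 and 7 without KO replicates 1, 2 and 3. Basement membrane genes moved both ways, 2 of 30 rising and 6 falling (median −1.33, and 4.62% up and 4.31% down over all genes). Nid2, for the laminin-binding linker nidogen-2, stood at 169.7, 443 and 157 CPM in WT and 1800.1, 1626 and 802 CPM in KO (log2 fold change 2.46, adjusted p = 0.0414). Lamc3, for a laminin gamma chain, was at 1.26, 0.725 and 0.676 CPM in WT and 18.5, 12.9 and 2.12 CPM in KO (log2 fold change 3.65, adjusted p = 0.0438). On the other side, Col15a1 measured 32.6, 41.2 and 76.5 CPM in WT and 0.969, 0.251 and 1.32 CPM in KO (log2 fold change −5.89 ± 0.71 (SE), adjusted p = 0.0112). Lama2, for the laminin chain of muscle and nerve, stood at 196, 27.6 and 63.9 CPM in WT and 3.88, 0.251 and 2.06 CPM in KO (log2 fold change −5.54, adjusted p = 0.0387). Col18a1, the source of endostatin, was at 424, 142 and 377 CPM in WT and 29.6, 5.25 and 8.6 CPM in KO (log2 fold change −4.44, adjusted p = 0.0264). Only the Col15a1 call of these 5 held. Col4a1, for a type IV collagen chain of all basement membranes, overlapped and was not called, at 1765, 1523 and 3160.5 CPM in WT and 3028, 2258 and 3999 CPM in KO (adjusted p = 0.40). Lamb3, Ntn1 and Ntn4, for a laminin chain and 2 netrins, were the others that fell. Those that fell numbered 1, 5 and 1 without WT replicates 1, 2 and 3 and 2, 2 and 4 without KO replicates 1, 2 and 3.

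Among proteoglycan genes 1 of 26 rose and 3 fell (4.62% and 4.31% over all genes), or 3 and 7 with the block (5.2% and 8.29%). Sdc4, for the cell-surface heparan sulfate proteoglycan syndecan-4, measured 273, 244 and 144 CPM in WT and 1592, 1342 and 1192 CPM in KO (log2 fold change 2.64 ± 0.33 (SE), adjusted p = 0.0119), and its call held. Prelp, for a leucine-rich repeat protein of connective tissue, stood at 329.9, 162 and 91.9 CPM in WT and 9.65, 0.981 and 1.04 CPM in KO (log2 fold change −5.64, adjusted p = 0.0354). Omd, for osteomodulin, was at 5.2, 15.3 and 1.55 CPM in WT and 0.392, 0.57 and 0.302 CPM in KO (log2 fold change −4.11, adjusted p = 0.0414). Ncan, for neurocan, measured 4.97, 8.17 and 5.45 CPM in WT and 0.369, 0.0684 and 0.302 CPM in KO (log2 fold change −4.64, adjusted p = 0.0182). Dcn, for decorin, was 35.2, 341 and 22.6 CPM in WT and 1594, 2179 and 653 CPM in KO libraries; it was called with the block (adjusted p = 0.0249) and not without it (adjusted p = 0.0936). Its relative Bgn, for biglycan, overlapped (1868, 6787 and 4195 CPM in WT and 2453, 1888 and 5496 CPM in KO).

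Glycoprotein genes fell in 6 of 48 cases and matrix remodelling genes in 5 of 52, or 9 with the block. In these lists 0 rose, or 1 and 3 with the block. Over all genes 4.31% fell, or 8.29% with the block. Sbspon, for a protein with somatomedin B and thrombospondin domains, stood at 9.86, 5.1 and 3.18 CPM in WT with 2 counts in all KO libraries (391-fold (95% exact counting interval 108 to 3233) lower, adjusted p = 0.00936). It was the member of these lists that held. Tnn, for a tenascin of tendon and bone surfaces, was at 4.6, 75.8 and 9.33 CPM in WT and 0.185, 0.0684 and 0.467 CPM in KO (log2 fold change −6.97, adjusted p = 0.0355). Ccn3, for a cysteine-rich matricellular protein, measured 123, 440.2 and 33.9 CPM in WT and 3.97, 0.182 and 1.51 CPM in KO (log2 fold change −6.72, adjusted p = 0.0392, and 0.0558 with the block). Fn1, for fibronectin, stood at 9837, 9463 and 14709 CPM in WT and 14474, 13118 and 23631 CPM in KO (adjusted p = 0.405). Thbs1, for thrombospondin-1, was at 14156, 8726 and 15948 CPM in WT and 11706, 12293 and 15100.4 CPM in KO (adjusted p = 0.988). The genotypes overlapped for both. Of the remodelling genes, Adamts8, an aggrecanase-family protease gene, measured 28.9, 1.17 and 9.01 CPM in WT and 0.0692, 0.0684 and 0.0824 CPM in KO (log2 fold change −7.42, adjusted p = 0.0245). Adamts15 stood at 2.59, 4.49 and 0.807 CPM in WT and 0.254, 0.0684 and 0.0549 CPM in KO (log2 fold change −4.34, adjusted p = 0.0392). Mmp15, for a membrane-type matrix metalloprotease, was at 53.9, 15.2 and 23.8 CPM in WT and 4.62, 0.73 and 3.02 CPM in KO (log2 fold change −3.47, adjusted p = 0.0436). The collagen cross-linking enzyme gene Lox was 1695, 2541 and 2018 CPM in WT and 4214, 4526 and 4742 CPM in KO libraries, without overlap, but did not pass (adjusted p = 0.0693).

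**Figure D4:**
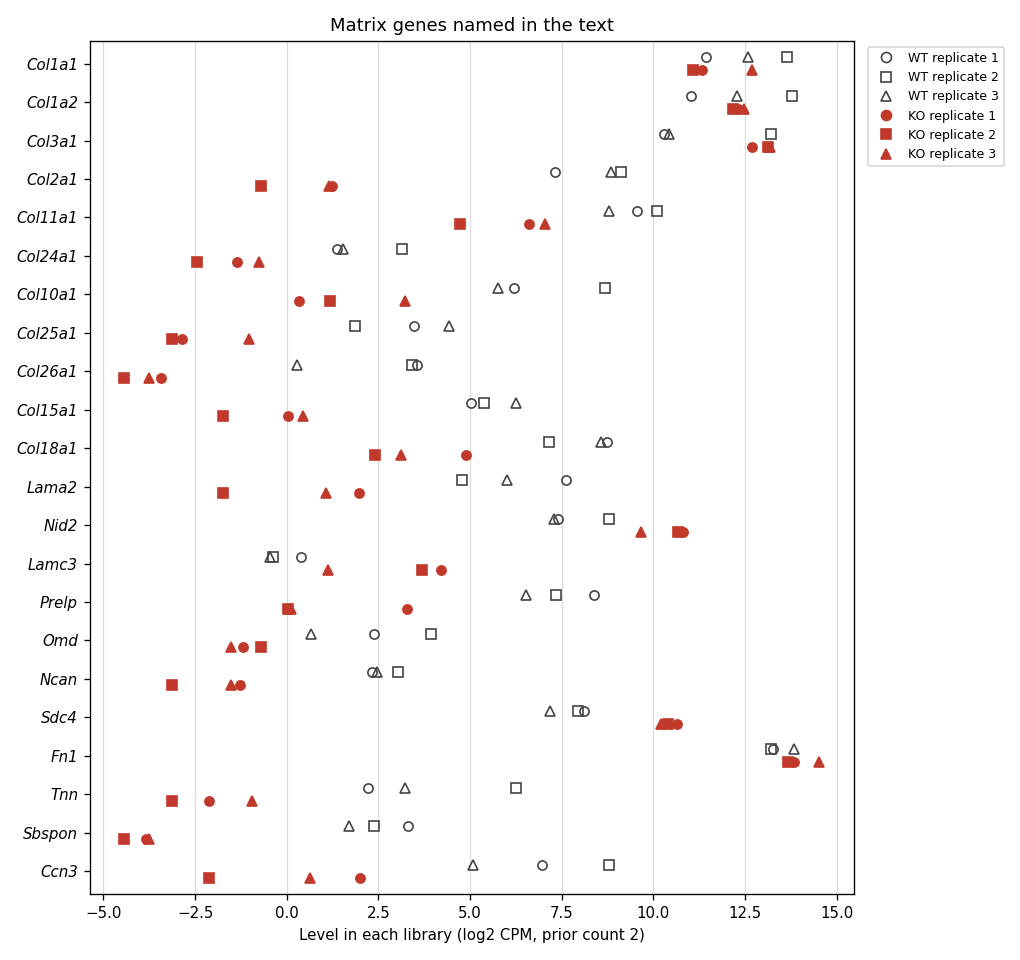
Levels of matrix genes named in the text, as log2 CPM with a prior count of 2, in the WT (open) and KO (red) libraries, 1 symbol per library. The interstitial collagen genes and Fn1 overlap or lie close at the right, while for Col2a1, Col15a1, Col26a1 and Sbspon all 3 KO libraries lie far to the left of WT, and for Sdc4 and Nid2 to the right.

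Receptor and adhesion genes rose in 13 (5.02%) and fell in 36 (13.9%) of 259 tested cases, or 17 and 62 with the block (median −0.90). The shares over all genes were 4.62% and 4.31%, or 5.2% and 8.29% with the block. Those that fell numbered 13, 24 and 4 without WT replicates 1, 2 and 3 and 6, 6 and 53 without KO replicates 1, 2 and 3. Receptor genes that rose numbered 7, 13 and 4 without WT replicates 1, 2 and 3 and 7, 9 and 16 without KO replicates 1, 2 and 3. Receptor tyrosine kinases, which bind growth factors, gave 3 that rose and 2 that fell of 28. Met and Mst1r encode the related receptors for hepatocyte growth factor and for macrophage-stimulating protein. Mst1r measured 0.432, 1.95 and 0.502 CPM in WT and 71.97, 84.5 and 61.8 CPM in KO (log2 fold change 6.26 ± 0.69 (SE), adjusted p = 0.00936). Met stood at 18.8, 17.5 and 27.4 CPM in WT and 163, 314 and 100.2 CPM in KO (log2 fold change 3.18 ± 0.46 (SE), adjusted p = 0.0165). Mertk, for a receptor that takes part in clearance of dead cells, was at 17.9, 15.5 and 11.5 CPM in WT and 314, 384 and 127 CPM in KO (log2 fold change 4.20 ± 0.47 (SE), adjusted p = 0.00936). Its relative Axl overlapped (505, 273 and 840.2 CPM in WT and 787, 761 and 982 CPM in KO). Fgfr4, for a fibroblast growth factor receptor of muscle precursors, fell (3.89, 0.669 and 1.96 CPM in WT and 0.231, 0.0456 and 0.137 CPM in KO, adjusted p = 0.0429). Ret, for the GDNF receptor, fell too (4.34, 3.63 and 6.04 CPM in WT and 0.208, 0.251 and 0.577 CPM in KO, adjusted p = 0.0189). The calls of Mst1r and Mertk held, and that of Met in 4 of the 6 fits. Pdgfra, a marker of fibroblasts, measured 13.9, 88.5 and 7.04 CPM in WT and 107, 219 and 48.3 CPM in KO and was called with the block only (adjusted p = 0.256 without and 0.0276 with it).

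Guidance receptors gave 2 that rose and 3 that fell of 30 (4.62% and 4.31% over all genes), or 6 that fell with the block (8.29%). Plxna4, for a semaphorin receptor, stood at 29.5, 10.3 and 35.6 CPM in WT and 508, 568 and 264 CPM in KO (log2 fold change 4.15 ± 0.57 (SE), adjusted p = 0.0144). Epha1, for an ephrin receptor of epithelia, was at 3.75, 4.21 and 7.89 CPM in WT and 28.6, 17.4 and 23.6 CPM in KO (log2 fold change 2.13, adjusted p = 0.028). Epha5, the Slit receptor gene Robo2 and the netrin receptor gene Unc5c fell. Epha5 measured 2.83, 4.21 and 1.68 CPM in WT and 0.231, 0 and 0.0549 CPM in KO (adjusted p = 0.0444). Robo2 stood at 59.5, 73.6 and 24.4 CPM in WT and 4.06, 0.479 and 3.13 CPM in KO (adjusted p = 0.0309). Unc5c was at 80.7, 97.3 and 77.1 CPM in WT and 8.66, 18.5 and 33.7 CPM in KO (adjusted p = 0.0447), and KO replicate 3 was the KO library closest to WT. Its relative Unc5b was not called (388, 298 and 739 CPM in WT and 560.2, 404 and 748 CPM in KO).

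Integrin genes fell in 3 of 17 cases and 0 rose, or 5 and 1 with the block. Over all genes 4.31% fell, or 8.29% with the block. Itga8, for the nephronectin receptor chain of mesenchyme, measured 90.2, 51.1 and 57.2 CPM in WT and 4.13, 1.03 and 3.96 CPM in KO (log2 fold change −4.44 ± 0.59 (SE), adjusted p = 0.0138). Itga2, for a collagen receptor chain, stood at 8.15, 5.52 and 4.62 CPM in WT and 0.231, 0.593 and 0.714 CPM in KO (log2 fold change −3.57, adjusted p = 0.0214). Itga9, for a tenascin receptor chain, was at 27.3, 48.1 and 27.4 CPM in WT and 4.8, 6.48 and 13.5 CPM in KO (log2 fold change −2.06, adjusted p = 0.0436). The common partner Itgb1 measured 4738, 1619.9 and 5122 CPM in WT and 1807, 1381 and 2033 CPM in KO and overlapped (adjusted p = 0.16). Cadherin genes, for calcium-dependent adhesion molecules, fell in 9 of 24 cases (4.31% over all genes), or 14 with the block, with a median of −3.14, or −2.92 with genes at 0 counts in a genotype placed at their bound. Pcdh8 had 0 counts in every KO library and 0.469, 0.753 and 0.393 CPM in WT, at least 7.34-fold lower (adjusted p = 0.0219). Cdh22 stood at 3.89, 1.48 and 2.6 CPM in WT and 0.0923, 0.0684 and 0.0549 CPM in KO (log2 fold change −5.14 ± 0.61 (SE), adjusted p = 0.0111), and its call held. Pcdh20 was at 7.04, 2.01 and 6.61 CPM in WT and 0.162, 0.114 and 0.357 CPM in KO (log2 fold change −4.62, adjusted p = 0.0217). The cadherin that rose was Pcdh11x, at 1.58, 3.32 and 2.62 CPM in WT and 21.95, 11.4 and 7.2 CPM in KO (log2 fold change 2.43, adjusted p = 0.0419, and 0.0583 with the block), a gene of the X chromosome. The mesenchymal cadherin gene Cdh11 overlapped (530.5, 1135 and 580.1 CPM in WT and 1513, 1627 and 820.0 CPM in KO). Cadherins that fell numbered 2, 8 and 1 without WT replicates 1, 2 and 3 and 1, 2 and 11 without KO replicates 1, 2 and 3.

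Receptors of the Wnt, Notch, Hedgehog and TGF-beta pathways fell in 7 of 39 cases (4.31% over all genes). In this list 0 rose, or 2 with the block (4.62% and 5.2% over all genes). Eng, for the TGF-beta co-receptor endoglin, measured 18.7, 24.7 and 37.3 CPM in WT and 1.82, 0.867 and 1.7 CPM in KO (log2 fold change −4.20 ± 0.46 (SE), adjusted p = 0.00922), and its call held. Acvrl1, for the BMP9 receptor kinase with which endoglin acts, fell from 24.9, 20.1 and 56.2 CPM in WT to 4.11, 4.52 and 5.69 CPM in KO libraries (log2 fold change −2.82, adjusted p = 0.0207). Hhip, for a Hedgehog-binding inhibitor, stood at 66.2, 8.37 and 17.2 CPM in WT and 1.32, 0.0684 and 0.0824 CPM in KO (log2 fold change −5.95, adjusted p = 0.0491). Rnf43, for a ligase that removes Frizzled receptors, was at 2.68, 1.09 and 2.07 CPM in WT and 0.323, 0.0684 and 0.302 CPM in KO (log2 fold change −3.07, adjusted p = 0.0451). Fzd1, Fzd2 and Notch1 were the others that fell, with log2 fold changes of −3.04, −2.12 and −2.49. Bmpr1a, for a BMP type I receptor, lay higher in every KO library (243, 174 and 160.0 CPM in WT and 400.0, 579 and 276 CPM in KO) but was not called (adjusted p = 0.0755). Members of the list that fell numbered 4, 4 and 1 without WT replicates 1, 2 and 3 and 2, 2 and 7 without KO replicates 1, 2 and 3.

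Cytokine and TNF-family receptors gave 3 that rose and 2 that fell of 49, shares close to those of all genes, or 4 and 7 with the block. Tnfrsf1b, for a TNF receptor, measured 18.8, 18.5 and 11.2 CPM in WT and 58.8, 39.1 and 56.3 CPM in KO (log2 fold change 1.67, adjusted p = 0.0246). Il1rap, for the shared chain of interleukin-1 receptors, stood at 46.3, 19.9 and 29.6 CPM in WT and 117, 155 and 87.1 CPM in KO (log2 fold change 1.90, adjusted p = 0.0325). Il22ra1, for the interleukin-22 receptor of epithelia, had 1 count in all WT libraries and 0.669, 1.12 and 0.934 CPM in KO libraries, a ratio of 122-fold (95% exact counting interval 21.5 to 4875). Ngfr, for the neurotrophin receptor of neural crest, fell from 35.1, 8.87 and 86.2 CPM to 0.208, 0.0456 and 0.687 CPM (log2 fold change −7.13, adjusted p = 0.024). Il17rc, for a chain of the interleukin-17 receptor, fell from 14.5, 27.4 and 19.1 CPM to 3.39, 3.33 and 4.09 CPM (log2 fold change −2.50, adjusted p = 0.0147).

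G-protein coupled receptors rose in 4 and fell in 10 of 72 cases (median −1.36, and 4.62% up and 4.31% down over all genes). With the block 19 fell (8.29% over all genes). Gpr39, for a zinc-sensing receptor, was at 4.41, 4.38 and 3.73 CPM in WT and 152, 119.9 and 127 CPM in KO (log2 fold change 4.99 ± 0.22 (SE), adjusted p = 0.000852). Its adjusted p was the smallest of all genes tested, and the call held. Avpr1a, for a vasopressin receptor, was at 10.9, 6.81 and 6.0 CPM in WT and 51.98, 134 and 60.2 CPM in KO (log2 fold change 3.38, adjusted p = 0.0147). S1pr5, for a sphingosine phosphate receptor, measured 0.0939, 0.0837 and 0.109 CPM in WT and 2.22, 0.456 and 1.9 CPM in KO (log2 fold change 3.95, adjusted p = 0.0279). Among called members, the largest decreases by fitted value were those of Adgrf5, an adhesion receptor gene, Rxfp1, a relaxin receptor gene, and Oxtr, the oxytocin receptor gene. Adgrf5 stood at 1.5, 14.2 and 20.7 CPM in WT and 0.162, 0.0228 and 0.302 CPM in KO (log2 fold change −6.22, adjusted p = 0.0362). Oxtr was at 3.92, 0.446 and 2.38 CPM in WT and 0.0231, 0.0684 and 0.0824 CPM in KO (log2 fold change −5.23, adjusted p = 0.030). Rxfp1 measured 1.43, 0.53 and 0.48 CPM in WT and had 2 counts in all KO libraries (53.6-fold (95% exact counting interval 14.5 to 447) lower, adjusted p = 0.0377). The KO libraries lay below 1 CPM for all 3, and the WT libraries differed several-fold among themselves. Those that fell numbered 3, 4 and 1 without WT replicates 1, 2 and 3 and 2, 0 and 15 without KO replicates 1, 2 and 3.

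Immune genes rose in 23 and fell in 14 of 242 tested cases (median 0.08), against 4.62% and 4.31% over all genes. With all libraries in the fit, this was the one programme here with more genes that rose than fell. The number that rose was 9, 20 and 5 without WT replicates 1, 2 and 3 and 5, 6 and 26 without KO replicates 1, 2 and 3. Immune genes that fell numbered 3, 4 and 2 without WT replicates 1, 2 and 3 and 7, 1 and 10 without KO replicates 1, 2 and 3. Fewer immune genes thus rose than fell without KO replicate 1. More lineage genes rose than fell without WT replicate 1 or 3 or KO replicate 1 or 2. The same was true of receptor genes without KO replicate 1 or 2. Immune genes remained the one such programme without WT replicate 2 or KO replicate 3. Complement and acute-phase genes rose in 6 and fell in 2 of 27 cases (4.62% up over all genes). Saa3, for a serum amyloid protein made outside the liver, stood at 0.30, 1.81 and 0.545 CPM in WT and 101, 85.1 and 58.9 CPM in KO (log2 fold change 6.55 ± 0.76 (SE), adjusted p = 0.0101). Pglyrp3, described above, belongs to this list, and both calls held. Serping1, for the C1 inhibitor, was at 43.8, 29.9 and 14.5 CPM in WT and 598, 504 and 146 CPM in KO (log2 fold change 3.82, adjusted p = 0.0234), with KO replicate 3 the lowest of the KO libraries. C2 and Cd55 also rose, Cd55 not with the block (adjusted p = 0.0605). The genes that fell were Lbp, for the lipopolysaccharide-binding protein (13.2, 11.2 and 7.09 CPM in WT and 1.11, 1.82 and 0.192 CPM in KO, adjusted p = 0.0484) and Cd59a, for an inhibitor of the membrane attack complex. Cd59a was lower in every KO library (74.7, 44.9 and 53.2 CPM in WT and 28.2, 21.9 and 16.8 CPM in KO, adjusted p = 0.0394). Members that rose numbered 2, 5 and 2 without WT replicates 1, 2 and 3 and 2, 2 and 6 without KO replicates 1, 2 and 3.

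Of 28 tested genes for chemokines and their receptors, 3 rose and 5 fell (4.62% up and 4.31% down over all genes). Those that rose encode the attractants Ccl2, Ccl7 and Ccl20. Ccl2 measured 16.99, 64.1 and 29.9 CPM in WT and 477, 291 and 506 CPM in KO (log2 fold change 3.52 ± 0.54 (SE), adjusted p = 0.0189). Its neighbour on chromosome 11, Ccl7, stood at 7.06, 25.97 and 19.8 CPM in WT and 102, 79.04 and 88.996 CPM in KO (log2 fold change 2.36, adjusted p = 0.0333). Ccl20 was at 7.06, 1.53 and 4.84 CPM in WT and 20.98, 29.1 and 41.8 CPM in KO (log2 fold change 2.77, adjusted p = 0.0391). The scavenging receptor genes Ackr3 and Ackr4 both fell. Ackr3 fell from 23.1, 45.4 and 16.4 CPM in WT to 0.831, 0.228 and 1.1 CPM in KO libraries (log2 fold change −5.30 ± 0.73 (SE), adjusted p = 0.0147). Ackr4 fell from 26.3, 50.3 and 11.6 CPM to 1.08, 0.479 and 0.247 CPM (log2 fold change −5.59 ± 0.81 (SE), adjusted p = 0.0164). Cx3cl1, for the membrane-bound fractalkine, fell from 252, 123 and 69.8 CPM to 15.9, 2.05 and 9.45 CPM (log2 fold change −4.02, adjusted p = 0.0378), and Ccl17 and Cxcl14 were the others that fell. Cxcl12, for the ligand of CXCR4 and ACKR3, varied within each genotype by more than between them, at 103, 1239 and 597 CPM in WT and 78.9, 123 and 1688 CPM in KO (adjusted p = 0.986). The number of the list that rose was 2, 3 and 0 without WT replicates 1, 2 and 3 and 0, 1 and 2 without KO replicates 1, 2 and 3.

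Cytokine genes rose in 3 and fell in 4 of 24 cases (4.62% up and 4.31% down over all genes). Il18, for an inflammasome-processed interleukin, measured 4.07, 4.94 and 2.6 CPM in WT and 92.1, 85.4 and 55.02 CPM in KO (log2 fold change 4.32 ± 0.36 (SE), adjusted p = 0.0057), and its call held. Tnfsf9, for the 4-1BB ligand, stood at 6.76, 3.37 and 5.45 CPM in WT and 22.7, 27.2 and 14.5 CPM in KO (log2 fold change 2.05, adjusted p = 0.0307). The 2 ligands of the CSF1 receptor moved in opposite directions: Csf1 was at 529.8, 342 and 420.0 CPM in WT and 1221, 989.8 and 1286 CPM in KO (log2 fold change 1.44, adjusted p = 0.030). Il34 measured 4.39, 4.38 and 2.92 CPM in WT and 0.277, 0.0228 and 0.11 CPM in KO (log2 fold change −4.80, adjusted p = 0.024). Il7, which supports lymphocyte precursors, stood at 16.4, 1.2 and 5.91 CPM in WT and 0.185, 0.0684 and 0.165 CPM in KO (log2 fold change −5.79, adjusted p = 0.0299). Tnfsf11, for the osteoclast factor RANKL, was at 0.939, 6.44 and 6.04 CPM in WT and 0.138, 0.251 and 0.275 CPM in KO (log2 fold change −4.32, adjusted p = 0.033). Lif was higher in each KO library (82.9, 17.5 and 37.03 CPM in WT and 254, 165 and 227 CPM in KO), with adjusted p = 0.0529, or 0.0228 with the block. Il17d was the other cytokine gene that fell. Cytokine genes that rose numbered 2, 2 and 1 without WT replicates 1, 2 and 3 and 1, 1 and 3 without KO replicates 1, 2 and 3.

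Interferon response and nucleic acid sensing genes rose in 5 and fell in 1 of 63 cases, with a median of 0.17 (4.62% up and 4.31% down over all genes). Trim25, for a ligase of the RIG-I pathway, measured 17.4, 17.4 and 11.2 CPM in WT and 55.8, 66.5 and 39.9 CPM in KO (log2 fold change 1.82, adjusted p = 0.0211). Tgtp1, for a T-cell-specific GTPase that has near-identical copies, so that its reads may be shared, stood at 0.263, 0.167 and 0.131 CPM in WT and 2.52, 2.24 and 1.59 CPM in KO (log2 fold change 3.47, adjusted p = 0.0164). Irf5 and Eif2ak2 also rose, Eif2ak2 not with the block (adjusted p = 0.0515). Those that rose numbered 1, 5 and 0 without WT replicates 1, 2 and 3 and 0, 0 and 8 without KO replicates 1, 2 and 3. Iigp1, for another interferon-induced GTPase, fell (14.2, 5.16 and 4.49 CPM in WT and 1.55, 0.776 and 0.769 CPM in KO, adjusted p = 0.0397). Ifitm3, for a membrane protein that restricts virus entry, lay lower in each KO library without passing (281, 481 and 184 CPM in WT and 157, 122 and 161 CPM in KO, adjusted p = 0.0972). Toll-like receptor and NF-kB genes rose in 4 of 34 cases and 0 fell. Nod1, for an intracellular sensor of bacterial peptidoglycan, was at 8.6, 15.4 and 11.1 CPM in WT and 109, 114 and 96.4 CPM in KO (log2 fold change 3.18 ± 0.27 (SE), adjusted p = 0.00591), and its call held. Tlr4, for the lipopolysaccharide receptor, measured 9.37, 10.99 and 7.98 CPM in WT and 43.5, 46.9 and 22.2 CPM in KO (log2 fold change 1.99, adjusted p = 0.0229). Its partner gene Ly96 rose as well (log2 fold change 1.65, adjusted p = 0.0431). Casp4, for the intracellular lipopolysaccharide sensor, stood at 1.91, 3.21 and 1.11 CPM in WT and 17.3, 19.6 and 10.4 CPM in KO (log2 fold change 2.93, adjusted p = 0.0237). In antigen presentation, 0 of 23 rose and 2 fell, H2-Eb1 and, without the block only, Tap2 (adjusted p = 0.0402, or 0.0507 with it). B2m, the invariant class I chain, was at 478, 724 and 532 CPM in WT and 696, 531 and 515 CPM in KO (adjusted p = 0.986).

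Myeloid and other leukocyte genes rose in 2 of 43 cases (4.65%, against 4.62% over all genes), and 0 fell. Ms4a3, a tetraspan gene of granulocyte precursors, had 0 counts in WT libraries and 2.93, 5.57 and 2.94 CPM in KO libraries, at least 55.7-fold higher (adjusted p = 0.0127). Lyz1 measured 0.432, 0.753 and 0.371 CPM in WT and 9.69, 13.05 and 1.65 CPM in KO (log2 fold change 3.97, adjusted p = 0.0386). Its neighbour and close copy Lyz2, with which reads could be shared, stood at 480.1, 603 and 314 CPM in WT and 4691, 1816 and 660.5 CPM in KO and was not called (adjusted p = 0.0791). The 6 macrophage markers summed to 179 to 365 CPM in WT and 102 to 603 CPM in KO libraries, and 0 of 6 were called. Csf1r, the receptor gene for both CSF1 and interleukin-34, was at 167, 138 and 70.4 CPM in WT and 229, 63.9 and 44.6 CPM in KO. Ptprc, for the pan-leukocyte protein CD45, measured 23.4, 12.6 and 10.2 CPM in WT and 53.6, 14.96 and 8.43 CPM in KO. C1qa, for a complement C1q chain, stood at 72.3, 77.1 and 40.9 CPM in WT and 58.97, 4.61 and 5.14 CPM in KO. KO replicate 1 was the highest KO library for all 3, and for Csf1r and Ptprc it was the highest of all 6. Granulocyte markers were at or near 0: Mpo, Prtn3, S100a8 and S100a9 summed to 0.113 to 0.371 CPM in WT and 0.0275 to 0.844 CPM in KO libraries, S100a9 having 0 counts in KO. Elane is not analysed here. The macrophage sum was 177 CPM in KO replicate 2 and 102 CPM in KO replicate 3, against 179 CPM in WT replicate 3, the lowest WT library. The part of leukocyte and mesothelial RNA in the other immune changes was not tested.

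**Figure D5:**
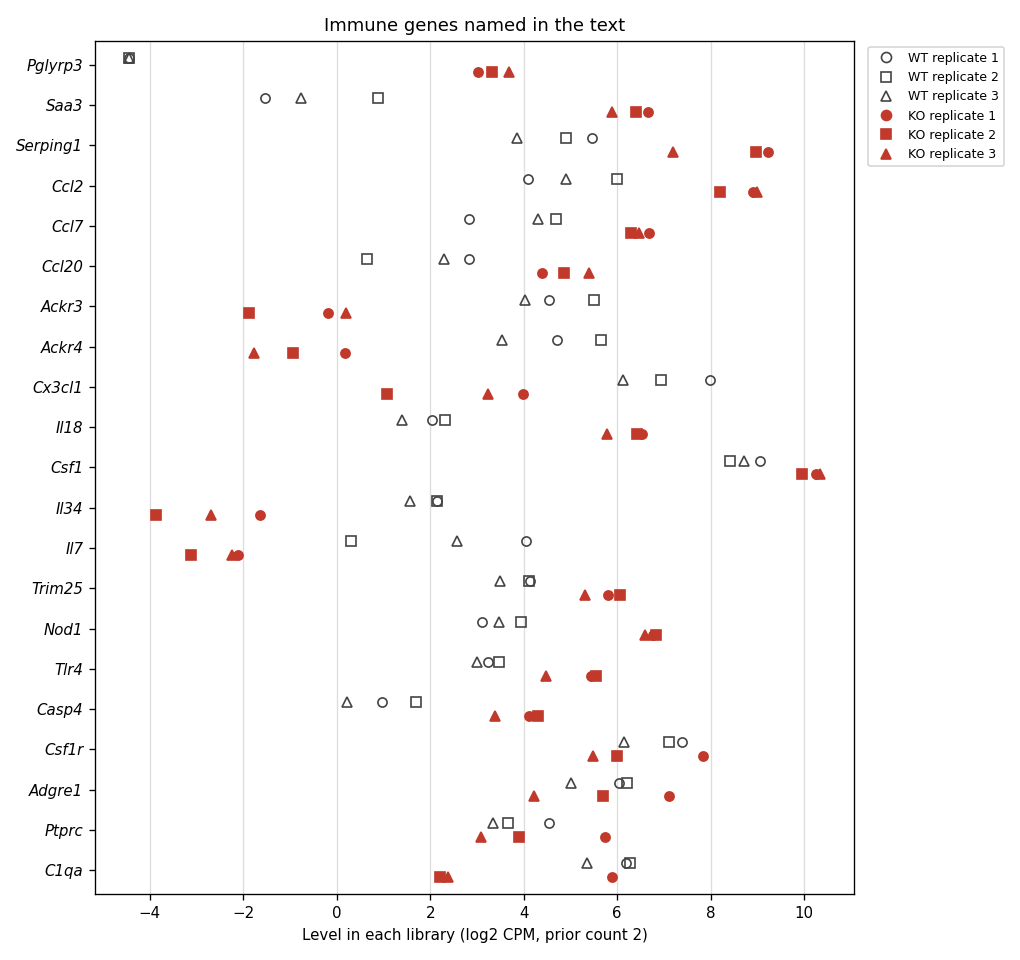
Levels of immune genes named in the text, as log2 CPM with a prior count of 2, in the WT (open) and KO (red) libraries, 1 symbol per library. For Pglyrp3, Saa3, Nod1 and Il18 the 3 KO libraries lie together to the right of WT and for Ackr3, Ackr4 and Il34 to the left, while the macrophage genes Csf1r, Adgre1 and Ptprc overlap, with KO replicate 1 (circle) the highest.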

How the data were processed

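Poly(A) RNA from 3 Atxn7l3+/+ and 3 Atxn7l3-/- embryonic fibroblast cultures was sequenced from stranded libraries; the other 5 samples of the series were not used. According to the submitters' processing notes and the study's methods, the authors trimmed reads with cutadapt 1.10, aligned them to mm10 with STAR 2.5.3a and counted them per gene with HTSeq 0.6.1p1; bcl2fastq 2.17.1.14 and DESeq2 1.16.1 are also named there. The deposited raw counts per gene were used for all tests. The deposited table also holds a signal per gene, counts normalized by the authors and divided by transcript length in kb, used here only to compare levels between genes. Columns with comparisons made by the authors (fold changes and p-values) were not used.

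Counts were fitted with edgeR 4.0.16 in R 4.3.3 (filterByExpr, TMM, quasi-likelihood test on genotype over all 15958 genes that passed, Benjamini-Hochberg adjustment), and genes with an adjusted p of at most 0.05 and a change of at least 2-fold were called. The 34 gene lists, the naming rule and the tests were chosen with earlier results of these data known. The rule named the H2B ubiquitylation genes, the 5 largest called changes each way (at least 10 CPM in the higher group, no overlap), up to 3 called genes each way in each list, the 2 with the highest mean CPM, the defining cell type markers and members of the same subfamilies. Same-numbered WT and KO libraries deviated together in these data (r = 0.473, 0.161 and 0.240), although they come from different embryos. The replicate number, taken from the labels, was therefore also fitted as a block. Neither the labels nor the study's methods give a pairing of the libraries. Alternatives were DESeq2 1.42.0, RLE and upper-quartile scaling, other filters on low counts, a GC correction, removal of the X and Y chromosomes and leaving out each library. Promoters are RefSeq sequences on GRCm38.p6. Genes with a group total of at most 3 counts are given as a ratio with an exact 95% interval, and those with 0 as a bound against 3 counts per library. Some genes that the rule selects are not reported here.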

Additional observations from a re-analysis of the deposited data

How the results depend on the processing

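Calls depended on which libraries entered. Leaving out 1 library at a time gave 120 to 952 genes that rose and 77 to 1036 that fell; by programme it gave 15 to 35 and 8 to 76 lineage genes, 1 to 4 and 6 to 49 matrix genes, 4 to 16 and 4 to 53 receptor genes and 5 to 26 and 1 to 10 immune genes, with Atxn7l3 between −0.88 and −0.62 on the log2 scale. Of 159 called genes named in the text, 85, 59 and 111 no longer passed the adjusted p of 0.05 without WT replicates 1, 2 and 3 and 107, 103 and 24 without KO replicates 1, 2 and 3, and none changed sign in any alternative that gave it a value, which a minimum of 10 counts in every library did for 91. DESeq2 gave 1254 genes that rose and 1955 that fell, 113 lineage genes that fell, 10 matrix genes that rose and 65 that fell, 82 receptor genes that fell, 35 immune genes that rose and 28 that fell, and Atxn7l3 at −0.74 (adjusted p = 0.0227). A minimum of 10 counts in every library, which tests fewer genes, left 322 genes that fell, among them 18 lineage, 13 matrix, 19 receptor and 7 immune genes; no filter gave 83 lineage genes that fell, 5 matrix genes that rose and 48 that fell, and 56 receptor genes that fell. The replicate block, used because same-numbered libraries deviated together in these data, gave 1323 genes that fell and 79 lineage genes that fell. It gave 9 matrix genes that rose and 44 that fell, and 62 receptor genes that fell. Among genes named in the text 13 lost and 9 gained a call under it, Col5a1 not counted. Each is given there, as is Col5a1, and the block changed no other call of these. Under a GC correction 19 of the named genes no longer passed, or 29 with the block, Ntn1 and Ntn4 not counted. Atxn7l3 was at −0.34 (adjusted p = 0.151), or −0.34 (0.181) with the block. The correction left 8 immune genes that fell, and with the block it gave 10 matrix and 20 receptor genes that rose. Log2 fold changes correlated with GC content across genes (Spearman −0.39), and the cause was not tested. Upper-quartile scaling moved the median of all genes from −0.06 to −0.17. Without the genes of the X and Y chromosomes 719 genes rose and 647 fell. The sign of the log2 fold change turned only in genes that were not called: under a GC correction in B2m (−0.50), Csf1r (0.13), Thbs1 (−0.000748) and Usp22 (0.16), under a GC correction with the replicate block in Adgre1 (−0.30), B2m (−0.44), Ptprc (−0.078) and Usp22 (0.16), under a minimum of 10 counts in every library in B2m (−0.055) and Thbs1 (−0.053), under the replicate block alone in Adgre1 (−0.090), under upper-quartile scaling in B2m (−0.11) and Thbs1 (−0.090). With 1 library left out it turned in Adgre1 (−0.69 to 0.77), B2m (−0.13 to 0.23), Bgn (−0.96 to 0.13), Cald1 (−0.54 to 0.046), Col1a2 (−0.90 to 0.54), Csf1r (−1.19 to 0.26), Cxcl12 (−2.66 to 0.85), Pecam1 (−1.27 to 0.27), Ptprc (−0.38 to 1.20), Slpi (−0.51 to 2.58), Thbs1 (−0.18 to 0.21), Usp22 (−0.078 to 0.010) and Xist (−8.63 to 0.035). The cause of these differences was not tested. With 3 libraries a genotype, each spread rests on few cultures, and depth limits genes near the floor of 3 counts.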

Other observations

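The libraries were not all of 1 sex. Xist, the RNA that coats the inactive X chromosome, stood at 0.150, 0.614 and 300.5 CPM in WT and 0.646, 0.274 and 0.220 CPM in KO. Eif2s3y, a Y-linked translation factor gene, stood at 77.1, 64.7 and 0.414 CPM in WT and 84.3, 126 and 101 CPM in KO. WT replicate 3 was thus the one library with abundant Xist RNA and little RNA from Y-linked genes, so that sex and this culture cannot be told apart within WT.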
